A study of Mus musculus with 4 samples.

Results

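The mouse Hox genes lie in 4 clusters, HoxA on chromosome 6, HoxB on chromosome 11, HoxC on chromosome 15 and HoxD on chromosome 2, and their chromatin was examined here in facial surface ectoderm at embryonic day 11.5. For each cluster a window was drawn from the lowest to the highest coordinate of its member genes and extended by 20 kb on both sides. An ATAC-seq peak was taken as a member where its centre lay inside a window. The windows hold 38 member Hox genes, 95 of the 65467 peaks called in control ectoderm and 4 of the 3103 AP-2-dependent regions, which are stretches that were more accessible in control than in mutant ectoderm.

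The study asked which open chromatin of the facial ectoderm depends on AP-2α and AP-2β, the transcription factors encoded by Tfap2a and Tfap2b. Control embryos were littermates without the Crect transgene that carried Tfap2a flox/+ and Tfap2b flox/+, and EDKO embryos carried Crect with Tfap2a flox/flox and Tfap2b flox/flox. Floxed alleles of both genes were thus present in every library, and deletion in EDKO embryos was limited to cells in which Crect, a Cre driven by an intronic enhancer of Tfap2a, had been active. The 4 libraries, 2 for each genotype, were made from ectoderm that was pooled from the facial prominences and freed of mesenchyme with dispase.

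Hox genes encode homeodomain transcription factors that give cells along the head-to-tail axis their positional identity. Within a cluster they are numbered as paralog groups 1 to 13, and the low numbers are used anteriorly and early, the high numbers posteriorly and late. In cells that do not use them, the clusters are classically covered by Polycomb repressive complexes, and the ectoderm and neural crest of the anterior face are known as territories without Hox expression. RNA was not analysed here, so the Hox-negative state was not checked in these samples. The tissue was checked instead by its start sites: all 10 surface ectoderm markers, Krt5, Krt14, Epcam, Cdh1 and Trp63 among them, had a control peak there (median summit −log10 p 10.1), 0 of 4 blood markers and 1 of 4 endothelium markers did, and so did 7 of 8 facial mesenchyme markers (median 5.14; all but Col3a1) and 4 of 4 neural markers (median 6.55). The part of mesenchymal or neural cells in the Hox peaks was not tested. In a bulk sample, few cells with an open site and a site that is weakly open in every cell cannot be told apart.

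The 4 AP-2-dependent regions are the only listed losses of accessibility inside the windows, and their sequences are shown for that reason. All are from the plus strand of GRCm38. Capitals mark matches, on either strand, to short strings described further on: the AP-2 string GCCNNNGGC, the TEAD string GGAATG and the MEIS string TGACAG. The first region lies at chr6:52280104-52280427, between genes and 19.4 kb upstream of the Hoxa13 start, and its last 300 bases hold no match.
HoxA region, chr6:52280128-52280427: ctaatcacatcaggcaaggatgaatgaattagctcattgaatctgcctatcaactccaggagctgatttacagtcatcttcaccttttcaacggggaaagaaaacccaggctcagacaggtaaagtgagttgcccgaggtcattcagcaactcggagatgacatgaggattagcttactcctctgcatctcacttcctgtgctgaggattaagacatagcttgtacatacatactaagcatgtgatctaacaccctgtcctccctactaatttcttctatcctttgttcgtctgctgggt
The second lies at chr15:102921834-102922186, across the end of coding exon 1 and into intron 1 of Hoxc13, and 71.1% of its bases are G or C.
Hoxc13 region, chr15:102921887-102922186: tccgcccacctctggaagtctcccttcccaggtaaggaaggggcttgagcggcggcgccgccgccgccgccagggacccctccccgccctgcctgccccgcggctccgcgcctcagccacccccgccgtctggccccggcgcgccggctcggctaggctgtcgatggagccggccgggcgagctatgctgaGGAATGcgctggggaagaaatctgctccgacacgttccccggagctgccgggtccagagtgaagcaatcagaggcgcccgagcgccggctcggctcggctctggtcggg
The third lies at chr15:103015511-103015802 in the 3′ UTR of Hoxc5, and of it only the surroundings of its AP-2 string are printed.
Hoxc5 region, chr15:103015655-103015683: agcaccccagGCCCGGGGCacattcttgt
The fourth lies at chr15:103042016-103042257, between genes and 7.74 kb downstream of the Hoxc4 start.
Hoxc4 region, chr15:103042016-103042257: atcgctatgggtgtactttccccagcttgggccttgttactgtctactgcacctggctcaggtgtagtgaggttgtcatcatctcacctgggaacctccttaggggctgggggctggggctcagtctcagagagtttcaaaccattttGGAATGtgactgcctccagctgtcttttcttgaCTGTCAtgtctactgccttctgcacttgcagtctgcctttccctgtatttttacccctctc

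The clusters were rich in open chromatin. Over 645 kb, the 4 windows held 14.7 control peaks per 100 kb (95% Wilson interval 12.1 to 18.0), against 2.39 per 100 kb on the chromosomes outside them, and peaks covered 10.6% of the windows against 1.89% outside. The intervals given here cover counting error only, since each of the peak lists combines its libraries and gives no value per library. HoxA was the most densely occupied window, with 34 peaks or 24.6 per 100 kb (17.6 to 34.3) and 18.2% of its length covered. HoxD followed with 19 peaks (13.9 per 100 kb; 8.89 to 21.7), HoxC with 21 (13.5; 8.82 to 20.6) and HoxB with 21 in a longer window (9.82; 6.42 to 15.0). The HoxD window also takes in Evx2, which is not a member gene, and some of the HoxD peaks lie in it. The intervals of HoxB, HoxC and HoxD overlap, and that of HoxA lies above that of HoxB.

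Most of the peaks were weak. A peak is described by its summit −log10 p, the strength of the call at its highest point, and the median over the 95 Hox peaks was 4.40 (middle 50% 3.75 to 5.74), against 5.10 outside. By cluster it was 4.32 in HoxD, 4.36 in HoxA, 4.44 in HoxC and 5.19 in HoxB, where it was not below that outside. The gap was wider near genes: the 71 Hox peaks within 5 kb of a protein-coding start site had a median of 4.34, and other peaks in that class had 7.66. Beyond 5 kb the 24 Hox peaks had a median of 4.44 against 4.66 elsewhere. Widths had a median of 593 bp in the windows and 560 bp outside, but within 5 kb of start sites the Hox peaks were narrower (637 bp against 1073 bp), and beyond 5 kb they had 518 bp against 467 bp. Of the 95 summits, 22 lay in coding exons (23.2%), 10 in UTRs, 24 in introns and 39 between genes. The coding exons and introns include those of Evx2.

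**Figure D1:**
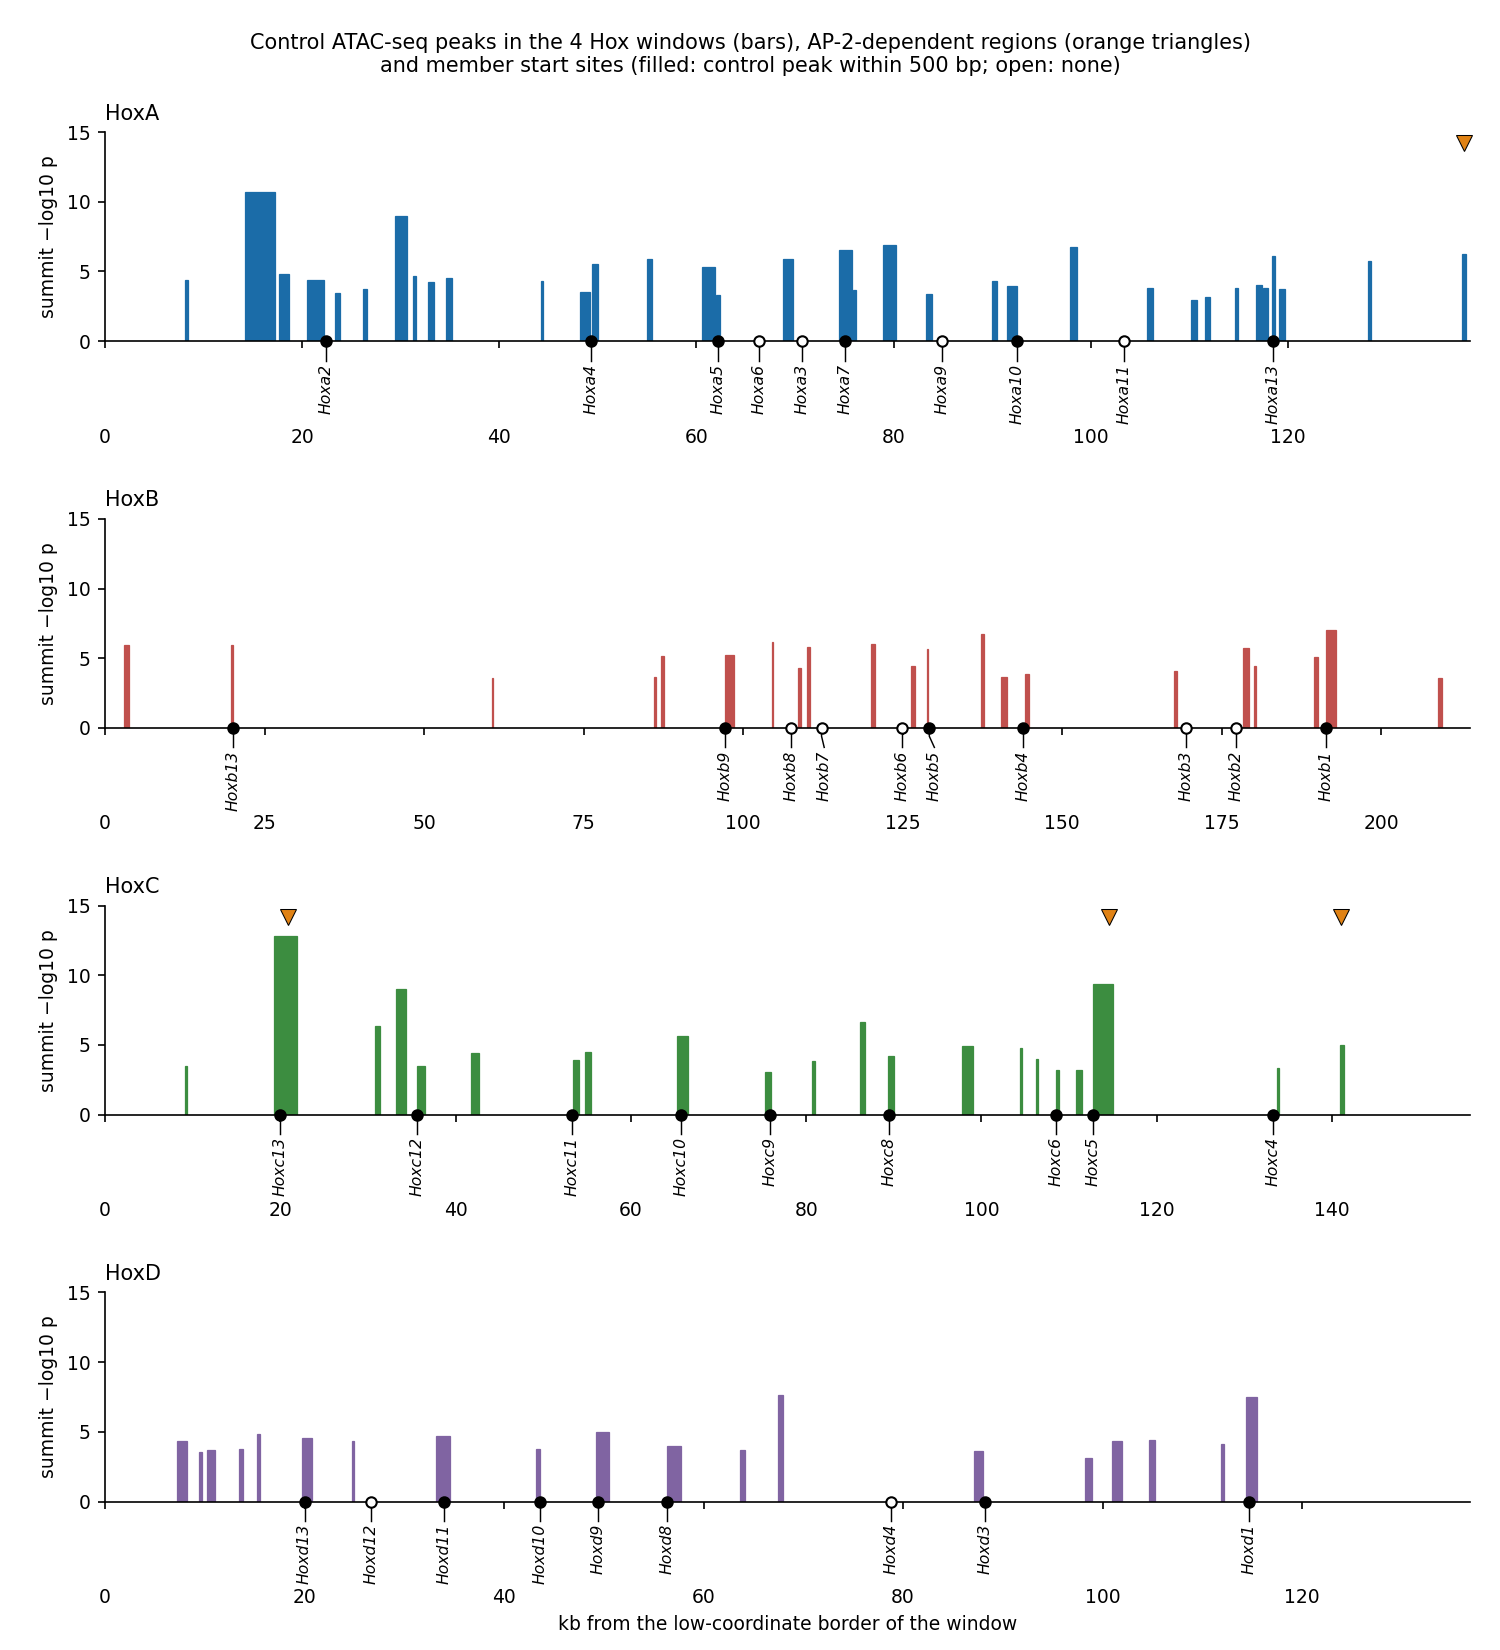
Control peaks along the 4 Hox windows: each bar spans a peak and its height is the summit −log10 p, plotted against kb from the low-coordinate border; circles on the axis are member start sites, filled where a control peak lies within 500 bp. The bars of HoxA are the most closely spaced, HoxB has a bare stretch of 40.6 kb beside Hoxb13, and 3 of the 4 AP-2-dependent regions (orange triangles) fall in HoxC.

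Set beside other homeobox clusters of the face, the Hox windows together were intermediate in density. The 3 Dlx windows, whose genes pattern the pharyngeal arches, held 40 control peaks or 21.8 per 100 kb (16.0 to 29.7), and 25.8% of their length was covered. The 2 Irx windows, which contain large gene-poor stretches, held 91 peaks or 4.00 per 100 kb (3.26 to 4.91). Median summit −log10 p was 5.72 over the Dlx windows and 5.09 over the Irx windows, but single windows varied, with 4.44 at Dlx1 and Dlx2 and 4.64 at Irx3, Irx5 and Irx6, so the Hox values were not below those of every window. The Hox windows differed from the genome in base composition: G and C made up 47.8% to 48.8% of the Hox windows against 41.7% of the chromosomes, the ratio of observed to expected CpG was 0.322 to 0.445 against 0.190, and repeats filled 16.1% to 25.0% against 36.4%. This was not particular to Hox. The Dlx windows had 45.0% to 51.7% G and C, CpG ratios of 0.270 to 0.389 and 17.8% to 23.2% repeats. The Irx windows had CpG ratios of 0.174 and 0.216.

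Within HoxA the strongest and widest control peak covered 3041 bp at chr6:52156641-52159681, with a summit −log10 p of 10.7. It spans the start of Hotairm1, a non-coding RNA made antisense at the anterior end of the cluster. A second strong peak of 1207 bp (8.98) lay in the UTR of a Hoxa3 transcript and also covers the start of the antisense non-coding gene Gm15050. In HoxB the strongest and widest peak was that at the Hoxb1 start (7.02; 1527 bp). In HoxC it was the peak at the Hoxc13 start (12.8; 2604 bp), followed by that over Hoxc5 and Mir615 (9.37; 2218 bp) and by an intergenic peak of 1094 bp located 1.91 kb upstream of Hoxc12 (9.05). In HoxD the strongest peak was a narrow one of 468 bp in an intron of Hoxd3 (7.65), which also covers the start of the antisense non-coding gene Hoxd3os1. The widest was that at the Hoxd8 start (1418 bp; 4.01).

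Open and bare stretches alternated in a different way in each cluster. The longest interval without a control peak was 9.28 kb in HoxA, upstream of Hoxa13. In HoxB it was 40.6 kb, in the long spacer between Hoxb13 and Hoxb9. HoxC had 18.7 kb without a peak between Hoxc5 and Hoxc4, which includes the annotated start of Hoxc4 itself, and HoxD had 21.4 kb between Hoxd1 and the border of the window and 19.1 kb between a pair of peaks that flank Hoxd4 and Mir10b.

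The start sites of the member genes were then examined gene by gene, since a promoter in use is normally nucleosome-free. A start site, taken from the principal transcript, was called open where a control peak lay within 500 bp. By this measure 27 of the 38 member genes were open (71.1%; 55.2 to 83.0), and over all 21938 protein-coding genes the share was 63.8%. All 9 HoxC genes were open, as were 7 of 9 in HoxD, 6 of 10 in HoxA and 5 of 10 in HoxB. Closed is used here for a start without a called peak, which does not show that the site was inaccessible. The 11 closed members were Hoxa3, Hoxa6, Hoxa9, Hoxa11, Hoxb2, Hoxb3, Hoxb6, Hoxb7, Hoxb8, Hoxd4 and Hoxd12. Hoxa9, Hoxb8 and Hoxd4 of these had a peak at another annotated transcript start. Peaks close to a start but not on it made up much of the count: the start base itself was inside a control peak for 15 of 38 members (39.5%; 25.6 to 55.3), and for 61.1% of all protein-coding genes. The order of both shares thus turned with the rule for the position of the peak, and it also turned where only peaks with an area under the curve of 500 or more were counted, with 44.7% of members and 61.4% of other genes open.

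Of the 27 open members, 12 had a peak that lay only beside the start (44.4%; 27.6 to 62.7), whereas this was so for 4.15% of the open start sites of other genes. In 8 of them the strongest such peak lay downstream, within the transcribed side: Hoxa2, Hoxa10, Hoxb4, Hoxb9, Hoxc4, Hoxc5, Hoxc6 and Hoxc11. In the other 4, Hoxa4, Hoxb5, Hoxd3 and Hoxd10, it lay upstream, and Hoxa4 also had a weaker peak (3.54) on the downstream side, in its coding exon 1. The distances ran from 29 bp for Hoxd10 and 31 bp for Hoxb9 to 300 bp for Hoxb4 and 394 bp for Hoxc4.

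CpG-rich promoters are open in most tissues whether or not the gene is highly expressed, so members were also set beside genes of like composition. A ratio of observed to expected CpG of at least 0.6 in the 1 kb around the start was found for 24 members, and 18 of these were open (75.0%; 55.1 to 88.0). Among other protein-coding genes that passed the same limit, 10196 of 10327 were open (98.7%). The 6 CpG-rich members without a peak were Hoxa3, Hoxa6, Hoxa11, Hoxb6, Hoxb7 and Hoxb8. The 250 bases upstream of the start are shown for Hoxd1, whose start was among the more strongly open of the members, and for the closed Hoxa11, both from RefSeq promoters of GRCm38.p6, written in the direction of transcription and with each CpG in capitals. The Hoxd1 stretch (chr2:74762730-74762979) holds 24 CpG and the Hoxa11 stretch (chr6:52245811-52246060, minus strand) holds 13.
Hoxd1 promoter: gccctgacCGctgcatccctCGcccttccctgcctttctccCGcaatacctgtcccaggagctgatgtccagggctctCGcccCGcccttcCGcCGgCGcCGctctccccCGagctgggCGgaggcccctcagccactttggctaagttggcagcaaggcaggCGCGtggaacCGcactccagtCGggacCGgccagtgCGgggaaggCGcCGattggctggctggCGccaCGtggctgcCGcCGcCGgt
Hoxa11 promoter: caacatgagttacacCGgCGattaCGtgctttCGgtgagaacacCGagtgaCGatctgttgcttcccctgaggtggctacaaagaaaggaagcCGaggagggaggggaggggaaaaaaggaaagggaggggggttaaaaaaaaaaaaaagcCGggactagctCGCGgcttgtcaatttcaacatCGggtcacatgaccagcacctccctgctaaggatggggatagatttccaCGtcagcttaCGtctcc

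Where members were open, their peaks were weaker and narrower than those of other genes. The median summit −log10 p at the 27 open member starts was 4.67 (middle 50% 3.90 to 5.82), against 9.42 (7.23 to 11.3) over the start-site peaks of other genes and 10.1 over those of CpG-rich genes. Median width was 963 bp against 1364 bp. The medians by paralog group were 4.39 for groups 1 to 4, with 7 of 11 members open, 5.30 for groups 5 to 8, with 7 of 11 open, and 4.67 for groups 9 to 13, with 13 of 16 open. There was accordingly no ordered change in strength from anterior to posterior members, and the intervals of the shares (35.4 to 84.8 for each of the first 2 sets and 57.0 to 93.4 for the last) overlap.

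**Figure D2:**
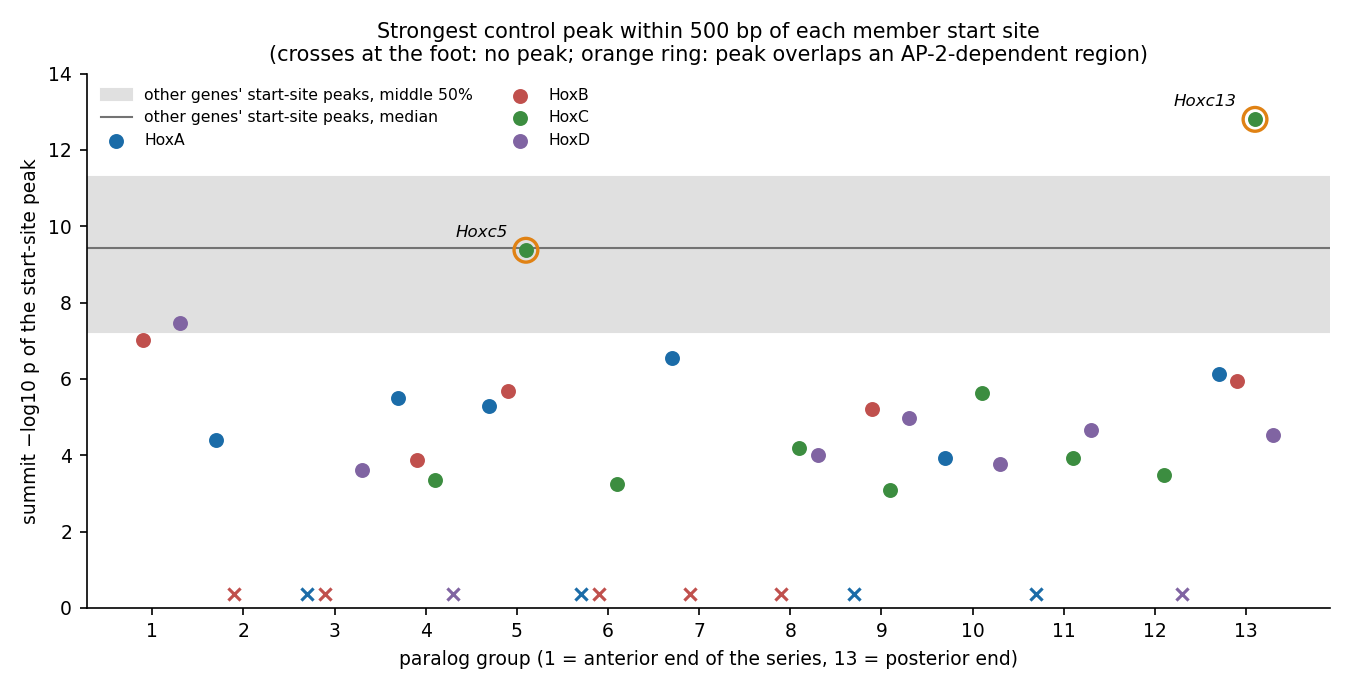
Summit −log10 p of the strongest control peak within 500 bp of each member start site, by paralog group and cluster; crosses at the foot mark members without a peak and orange rings mark peaks that overlap an AP-2-dependent region. The grey band is the middle 50% of other genes' start-site peaks (7.23 to 11.3, line at 9.42), and 24 of the 27 open members lie below it.

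Hoxc13, a regulator of hair keratin genes that is needed for hair and nail formation, had by far the strongest start-site peak of the members. Its summit −log10 p of 12.8 exceeded that of 88.7% of the open start sites of other genes, and its area under the curve was 10313. Hoxc5 came next at 9.37, above 47.0% of other open start sites. Its peak begins 74 bp downstream of the start and also covers the start of Mir615, which lies in an intron of Hoxc5, so that the part of each in the signal cannot be told apart.

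The anterior members of paralog group 1, Hoxb1 and Hoxd1, which are used in the hindbrain and early mesoderm, had 7.02 and 7.47. Hoxd1 was the only other member inside the middle 50% of other genes. Hoxa2, the selector gene of the second pharyngeal arch, had a wide but weak peak (1695 bp; 4.39), and its neighbours in that paralog group and the next, Hoxb2, Hoxa3 and Hoxb3, were closed. Hoxd3 had 3.62. In paralog group 4, Hoxa4 had 5.51, Hoxb4 3.87 and Hoxc4 3.35, and Hoxd4 was closed, its start lying 8346 bp from the nearest control peak.

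Among the trunk members of paralog groups 5 to 8, Hoxa7 (6.55), Hoxb5 (5.69) and Hoxa5 (5.30) were the strongest after Hoxc5. The Hoxa5 value is that of a peak beside the start, and the peak over the start base itself had 3.31. Hoxc8 had 4.18, Hoxd8 4.01 and Hoxc6 3.24. Every member of group 6 apart from Hoxc6, and Hoxb7 and Hoxb8, were closed. The start of Hoxa7 also had a stronger neighbour, since another of its transcript starts carried a peak of 6.91. Another start of Hoxc6 likewise carried a stronger peak, of 4.95.

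The posterior members of groups 9 to 13, which pattern the limb, the tail end of the axis and the urogenital tract, were open in 13 of 16 cases but mostly weak. After Hoxc13 came Hoxa13 (6.12), Hoxb13 (5.95), Hoxc10 (5.64), Hoxb9 (5.22), Hoxd9 (4.98), Hoxd11 (4.67) and Hoxd13 (4.52). Hoxa10 and Hoxc11 had 3.93 each, Hoxd10 had 3.78 and Hoxc12 had 3.49. Another transcript start of Hoxa10 carried a stronger peak, of 6.77. Hoxc9 had the lowest value of any open member, 3.08, below which 0.0573% of other open start sites fell. Hoxa13, with 330 bp, and Hoxb13, with 408 bp, had narrow peaks.

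**Figure D3:**
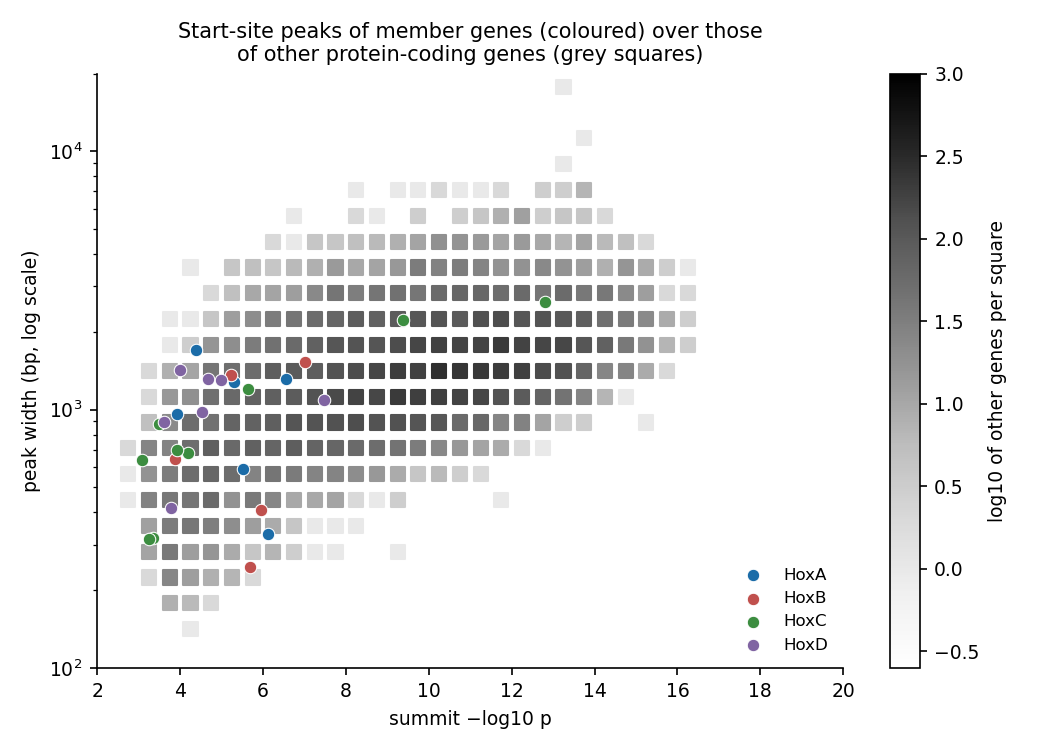
Summit −log10 p (x) and width in bp (y, log scale) of start-site peaks of the members, in colour, over those of other protein-coding genes, where darker squares hold more genes; 14 other genes outside the drawn range are not shown. Most members lie in the weak, narrow corner, and Hoxc13 (12.8; 2604 bp) and Hoxc5 (9.37; 2218 bp) lie among the strong and wide peaks.

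Genes that act on or with the Hox proteins were mostly open by the same measure. Open starts were also found for 63.8% of other protein-coding genes. Among the CpG-rich ones the share was 98.7%, with a median summit −log10 p of 10.1. The values below are therefore not read as particular to Hox regulators. The TALE homeodomain cofactors that were examined, which bind DNA together with Hox proteins, were open for 8 of 8 genes with a median summit −log10 p of 10.4, from 6.31 for Pbx2 to 12.1 for Pbx4. Polycomb genes, whose products hold silent Hox clusters, were open for 13 of 15 with a median of 11.2, Ezh2 having 13.9 and Eed 10.3, and Phc1 and Phc2 had no peak. Trithorax and boundary genes, which keep Hox genes active or partition the clusters, were open for 8 of 8 with a median of 10.4, Kmt2a having 10.1 and Ctcf 10.8. The retinoic acid receptor genes, mediators of the classical Hox inducer, were open for 3 of 3, with Rara at 12.9, Rarg at 7.43 and Rarb at 7.11. None of the start-site peaks of these 4 lists overlapped an AP-2-dependent region, where the background among peaks close to start sites was 1.51%.

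Relatives of the Hox genes stood closer to the members. Of 11 ParaHox, Evx, Mnx and Gbx genes, which specify gut, neural and tail identities, 9 were open with a median of 5.34. Evx2, which lies next to Hoxd13 inside the HoxD window, had 3.67, and Evx1, beyond Hoxa13, had 5.34. Gsx2 had 3.58 and Cdx2 4.67, and Cdx1 and Cdx4 were closed. The Dlx genes, with 6 of 6 open and a median of 9.85, and the Irx genes, with 6 of 6 open and 9.11, had values like those of other genes.

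Loss of AP-2 touched few of the Hox peaks. Of the 95 control peaks, 4 overlapped an AP-2-dependent region by at least 1 bp (4.21%; 1.65 to 10.3), and over all control peaks the share was 4.48%, so the Hox share was near the background. In HoxC 3 of 21 peaks overlapped a region (14.3%; 4.98 to 34.6) and in HoxA 1 of 34 (2.94%; 0.521 to 14.9). HoxB, with 0 of 21, and HoxD, with 0 of 19, allow shares of up to 15.5% and 16.8% by the same interval. Near start sites 2 of 71 Hox peaks were affected, where the background was 1.51%, and farther than 5 kb 2 of 24, where it was 5.75%. The share was 13.2% in the Irx windows (12 of 91 peaks; 7.71 to 21.6) and 2.50% in the Dlx windows (1 of 40; 0.443 to 12.9).

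**Figure D4:**
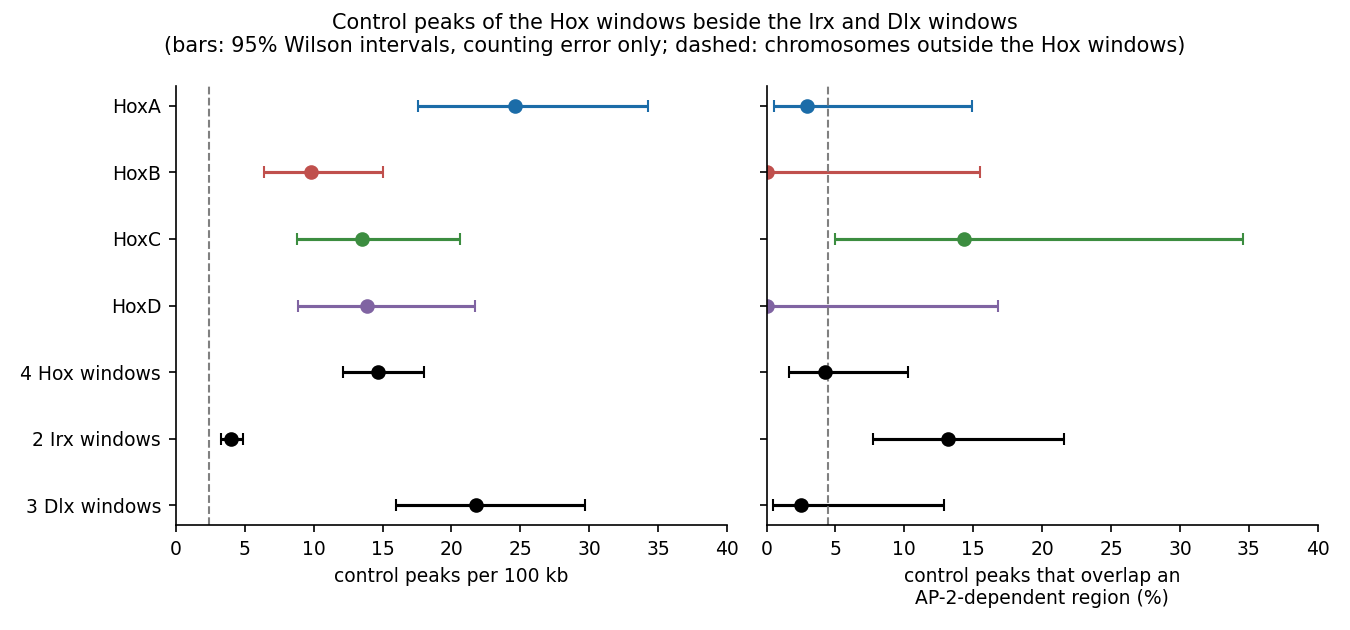
Control peaks per 100 kb (left) and share of control peaks that overlap an AP-2-dependent region (right) for each Hox window, all 4 Hox windows, the 2 Irx windows and the 3 Dlx windows; bars are 95% Wilson intervals and dashed lines give the chromosomes outside the Hox windows (2.39 per 100 kb and 4.47%). Every window lies above the dashed line in density, and on the right the interval of the 4 Hox windows together spans it.

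The affected regions differed in how much of their control peak they took up. The region at Hoxc13 was 353 bp long, with a summit −log10 p of 5.29 against EDKO, and filled 13.6% of the 2604-bp control peak. Its centre lay 0.907 kb downstream of the start, so the start itself was outside the region. The region at Hoxc5, the strongest of the 4 at 6.51, was 292 bp long and filled 13.2% of a 2218-bp peak, 1.84 kb downstream of the start. Both were thus short stretches inside broad peaks.

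The intergenic regions matched their control peaks more closely. The HoxA region (324 bp; 3.58) filled 75.0% of a 432-bp peak with a control value of 6.25, and the region beyond Hoxc4 (242 bp; 4.10) filled 47.4% of a 511-bp peak with 5.02. In all 4 cases the summit of the region and that of the control peak were 10 to 38 bp apart. Set among all AP-2-dependent regions by summit −log10 p, they exceeded 84.8% (Hoxc5), 73.5% (Hoxc13), 36.4% (Hoxc4) and 10.9% (HoxA) of them. Both intergenic regions lie outside the span of the member genes, in the added 20 kb, and the peak of the HoxA region has its centre 0.581 kb from the border of the window.

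The AP-2 string, the palindromic core that AP-2 proteins recognise, was then sought on both strands within 100 bp of each summit. It was present in 33 of the 95 Hox peaks (34.7%; 25.9 to 44.7) and in 14.4% of peaks elsewhere. Within 5 kb of start sites the shares were 33.8% (23.9 to 45.4) and 19.2%, and beyond 5 kb 37.5% (21.2 to 57.3) and 12.3%. The string is itself made of G and C, and Hox summits had a median G and C content of 62.7%, near the 62.2% of other peaks close to start sites and above the 50.7% of other distal peaks. Within bands of G and C content, the Hox shares were 2 of 12 below 50%, 6 of 27 from 50 to 60%, 15 of 41 from 60 to 70% (36.6%; 23.6 to 51.9) and 10 of 15 at 70% or more (66.7%; 41.7 to 84.8), where peaks elsewhere had 8.14%, 12.5%, 20.7% and 37.1%. Of the 33 Hox peaks with the string, the peak over Hoxc5 overlapped an AP-2-dependent region and the other 32 did not. Over all control peaks, with or without the string, the share was 4.48%. The share among peaks elsewhere that hold the string was not computed. Of the 24 RefSeq promoters found for 22 of the members, 6 (25.0%) held the AP-2 string, and over all 32851 promoters of the same length 16.6% did. No interval was computed for this small count.

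**Figure D5:**
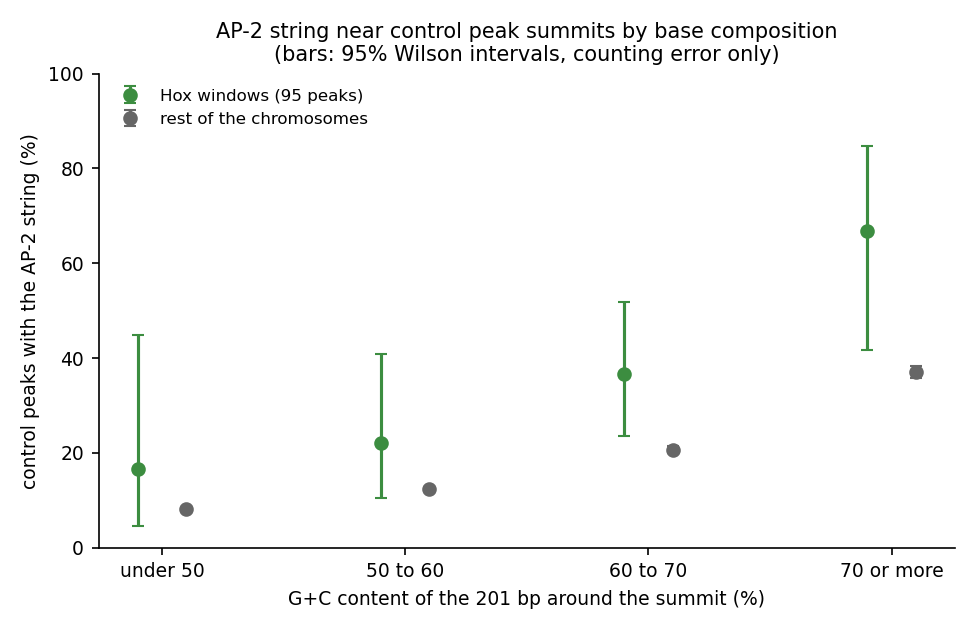
Share of control peaks with the AP-2 string within 100 bp of the summit, by G and C content of that stretch, for the 95 Hox peaks and all other peaks; bars are 95% Wilson intervals. In each band the Hox share is the higher, and in the lower 2 bands (16.7% and 22.2%) its interval includes the share elsewhere.

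Strings for other factors of the region were also counted. A consensus for CTCF, the insulator protein that divides Hox clusters into domains in other tissues, was found at 0 of the 95 summits (0 to 3.89%) and at 6.22% of summits elsewhere. The Hox peaks are mostly close to start sites, and with the classes kept apart the shares were 0 of 71 (0 to 5.13%) against 3.77% within 5 kb and 0 of 24 (0 to 13.8%) against 7.27% beyond, so that in both classes the interval includes the share elsewhere. In whole windows it occurred 4 times, each time in HoxB and each time 4021 to 7320 bp away from the nearest control peak. In the Irx windows 5 of 31 such strings, and in the Dlx windows 4 of 5, lay in a control peak. The 4 HoxB sites are shown with 15 bases on either side and the match in capitals, in the orientation of the match, to let the closed sites be compared.
chr11:96185419-96185459: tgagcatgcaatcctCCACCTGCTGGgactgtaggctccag
chr11:96265861-96265901: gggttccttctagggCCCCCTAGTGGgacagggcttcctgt
chr11:96290224-96290264: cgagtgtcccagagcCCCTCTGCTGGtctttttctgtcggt
chr11:96378035-96378075: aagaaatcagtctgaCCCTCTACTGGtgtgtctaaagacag
The first lies 8.88 kb upstream of Hoxb13, the second 5.58 kb upstream of Hoxb9, the third 3.62 kb downstream of the Hoxb7 start and the last 12.3 kb downstream of the Hoxb1 start. An absent match says only that these letters are not there.

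The string TGATNNAT, a joint site for Hox and PBX proteins, was found near 8 of 95 Hox summits (8.42%; 4.33 to 15.7) and 5.48% of others. The MEIS string was found near 8 of 95 (8.42%; 4.33 to 15.7) against 20.1%, and the TEAD string near 15 of 95 (15.8%; 9.81 to 24.4) against 17.9%. Within 5 kb of start sites the MEIS shares were 5.63% (2.21 to 13.6) and 12.9%, and beyond 5 kb 16.7% (6.68 to 35.9) and 23.2%, where both intervals include the share elsewhere. The TEAD string turned direction within the classes, with 12.7% (6.81 to 22.4) against 10.8% within 5 kb and 25.0% (12.0 to 44.9) against 20.9% beyond. For the Hox-PBX string the shares were 7.04% (3.05 to 15.4) against 2.59% within 5 kb, and 3 of 24 (12.5%) against 6.72% beyond. In the promoter sequences the MEIS string was in 2 of 24 member promoters (8.33%) and 19.2% of all. Hox-PBX strings were in 4 of 24 (16.7%) and 8.85%. These counts are small and no interval was computed for them, so no difference is read from them.

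The clusters also hold non-coding genes. The share of open starts among such genes elsewhere in the genome was not computed, so these counts describe the clusters alone. Of 7 annotated miRNA genes only Mir615 had a control peak within 500 bp of its start, the 9.37 peak shared with Hoxc5 and 1 of the 4 that overlap an AP-2-dependent region. The other named miRNA genes were bare: the nearest control peak was 9283 bp from Mir10b, 3309 bp from Mir196a-1, 3015 bp from Mir196a-2, 2233 bp from Mir196b and 1293 bp from Mir10a. These miRNAs belong to families that the duplication of the clusters left behind, which the mature RefSeq sequences show, with the seed (bases 2 to 8) in capitals.
miR-10a-5p: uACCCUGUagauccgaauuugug
miR-10b-5p: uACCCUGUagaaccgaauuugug
miR-196a-5p: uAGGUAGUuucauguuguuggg
miR-196b-5p: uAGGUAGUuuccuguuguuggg
miR-615-3p: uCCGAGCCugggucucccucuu
The miR-10 pair shares the seed ACCCUGU and the miR-196 pair AGGUAGU, and both families target Hox mRNAs, whereas miR-615-3p, the product of the single open gene, has a seed of its own.

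Long non-coding genes were open for 11 of 21 starts, again without a share over such genes elsewhere. Hotairm1 had the strongest peak of HoxA, as given above, and Haglr, between Hoxd1 and Hoxd3, had 4.37 at the transcript start used. Its annotated gene start lies farther upstream, inside the 7.47 peak of the Hoxd1 start. Hotair, an RNA of the HoxC cluster between Hoxc12 and Hoxc11, and Hottip, at the posterior end of HoxA, had no peak at their starts. Of 20 further RNA genes annotated without a class of their own, 5 were open.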

How the data were processed

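ATAC-seq was analysed in 2 control and 2 EDKO libraries from facial ectoderm at embryonic day 11.5. The authors trimmed adapters with NGmerge, aligned reads to mm10 with Bowtie2 (up to 10 placements a pair) and called peaks with Genrich, removing duplicates and mitochondrial reads. Both control libraries together gave the control peaks, and the control libraries against EDKO as background gave the AP-2-dependent regions. Per peak, the authors deposited a score (1000 times the area under the curve over the width, capped at 1000), the area itself as a further score, and the summit −log10 p, which is not adjusted. The summit offset, another deposited score, gave the summit position. No read counts or values per library exist in the lists, so depth is unknown and no test between replicates was possible.

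Coordinates are on GRCm38 (GENCODE mouse release 21; 21 chromosomes; 169 control peaks on scaffolds were only counted). Overlap means at least 1 bp, proximal at most 5 kb from a protein-coding start. Wilson intervals were computed with SciPy 1.17.1 in Python 3.11.15, sequences were read with pysam 0.24.0 and samtools 1.23.1, and the programs were tested on simulated data. Of the 31-base stretches in the 95 Hox peaks, 99.6% occur once in the genome, and in 93 peaks more than 95% do.

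Named were all members, all regions, the strongest and widest peak and the longest bare stretch of each window, its non-coding genes, the Irx and Dlx windows and lists of regulators, relatives and markers; further peaks were named after their values were seen. Members, lists and strings were chosen with earlier results of these data known. Other window sizes, start-site rules, thresholds and string ranges were tried. The result for 1 gene of the regulator lists is not reported here. RNA, coverage and regions that gained accessibility were not analysed here.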

Additional observations from a re-analysis of the deposited data

How the results depend on the processing

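Under the stricter limit on the area (500 or more), 50 control peaks (7.75 per 100 kb) and 1 region remained in the windows, and 44.7% of members against 61.4% of other genes had a peak at the start site. Without the 20 kb extension 2 regions remained, and with 50 kb there were 6. Where the overlap had to fill at least 50% of both intervals, 1.05% of Hox peaks overlapped a region, against 2.87% of all. Requiring the start site inside the peak gave 39.5% of members. The AP-2 string was in 24.2% of peaks within 50 bp of the summit and in 52.6% anywhere in the peak. The cause was not tested beyond the stricter rule itself. The remaining alternatives kept shares, densities and medians within their intervals and counts within 1.5 times.

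No paired analysis was possible because each list pools its libraries, and for the same reason none was left out. The lists give no depth, and a site without a peak is not shown to be closed.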

Other observations

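A looser CTCF consensus, chosen after seeing the data, was found near 3 of the 95 Hox summits (3.16%; 1.08 to 8.88) and near 6.73% of others. The 3 peaks lay 9.79 kb upstream of Hoxb9 (summit −log10 p 5.19), 0.260 kb upstream of Hoxb5 (5.69) and in the Hoxd3 intron where HoxD had its strongest peak (7.65), and none overlapped an AP-2-dependent region. The Hoxb5 peak is the peak counted at that gene's start.

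Beyond the borders of the windows the nearest control peak lay 3.99 kb (HoxC, high side) to 69.5 kb (HoxD, low side) away. The HoxD neighbour at 69.5 kb had a summit −log10 p of 12.3, above all peaks of its window.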
